A study of Mus musculus with 8 samples.

Results

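The genes that build the cardiac thick filament were followed in RNA from ventricles of mouse embryos at E10.5. They are 9 genes chosen by symbol: the heavy chains Myh6, Myh7 and Myh7b, the regulatory light chains Myl2 and Myl7, the essential light chains Myl3 and Myl4, the binding protein Mybpc3 and the light chain kinase Mylk3. The rule that names them uses no measured value, though it was written with earlier results of these data known. All 9 were found among the 55291 gene symbols of the count table and passed the filter on low counts. The libraries came from Pkn2 fl/fl embryos with XMLC2-Cre (cKO, 4 libraries) and from Pkn2 fl/fl littermates without Cre (control, 4 libraries), on a C57BL/6N background (the strain label reads C57BL/6). Both groups thus carried the floxed alleles, and the presence of Cre and the loss of Pkn2 cannot be told apart. In XMLC2-Cre the recombinase is driven by a Xenopus myosin light chain 2 promoter, which is active in cardiomyocytes, while the RNA came from whole ventricular tissue with its other cell types. The comparison of cKO with control asked whether cardiomyocyte loss of PKN2, a serine/threonine kinase, altered the myosin genes at a stage when the hearts of both groups had the same gross shape.

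Cardiac myosin is the motor of the sarcomere. Each heavy chain has an ATP-splitting, actin-binding head and a lever arm that carries a regulatory and an essential light chain, and phosphorylation of the regulatory light chain by the kinase encoded by Mylk3 tunes the position of the heads. Mybpc3 encodes cardiac myosin binding protein C, which binds the thick filament and restrains the heads. In the mouse ventricle Myh7 (beta heavy chain, slow) is the main heavy chain before birth and Myh6 (alpha heavy chain, fast) after it, while in the adult heart Myl2 and Myl3 mark ventricular and Myl7 and Myl4 atrial myocytes. The embryonic ventricle still transcribes both the ventricular and the atrial light chains.

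Libraries held 47559845 to 56660938 counts, and hemoglobin genes took 0.137% to 0.475% of them. Pkn2 was at 24.6, 23.3, 22.8 and 25.1 TPM (a level per transcript length, computed by the authors) in cKO libraries 1 to 4 and at 39, 44.3, 43.5 and 48.1 TPM in control libraries 1 to 4, with no overlap of the groups. Cardiomyocyte content was checked with 15 genes outside the 9, such as Tnnt2 and Actn2, which atrial and ventricular myocytes share. Their summed level was 27499 to 30441 CPM in cKO and 28885 to 31719 CPM in control libraries (CPM, the counts after TMM scaling of the libraries). Actc1 held the largest part of that sum, with means of 11877 CPM in cKO and 12318 CPM in control. In bulk tissue, fewer cells of a type and less RNA per cell cannot be told apart.

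Sequences are shown first for the heavy chain loci, because the genes Myh6, Myh7 and Myh7b each contain a microRNA. Myh6 and Myh7 are neighbors on chromosome 14, on the same strand. The mature microRNAs below are from RefSeq (GRCm38.p6), with the seed, bases 2 to 8, in capitals. The first is at chr14:54949072-54949093 (minus strand, within Myh6), the second at chr14:54975710-54975731 (minus strand, within Myh7) and the third at chr2:155622893-155622913 (plus strand, within Myh7b).
mmu-miR-208a-3p: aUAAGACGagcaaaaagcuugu
mmu-miR-208b-3p: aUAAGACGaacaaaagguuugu
mmu-miR-499-5p: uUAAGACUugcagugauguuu
The microRNAs of the Myh6 and Myh7 genes share a seed, and the seed of the Myh7b microRNA differs from it in base 8 alone. Poly(A)-selected libraries do not measure mature microRNAs, so only the reads counted at these loci are given further on.

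Promoters are shown for the heavy chain pair, for Myl7, which belongs to the ratio with the clearest separation of the groups, and for Mybphl, the related gene that passed the test. Each run is the 200 bases upstream of the start in the deposited annotation (RefSeq, GRCm38.p6, 5′ to 3′ on the gene's strand). Capitals mark matches, on either strand, to CATTCC (the M-CAT core), GATAA (the core bound by GATA factors), TATAAA, or the MEF2 and CArG box consensus sequences. The runs lie at chr14:54966642-54966841 (minus strand, Myh6), chr14:54994627-54994826 (minus strand, Myh7), chr11:5898783-5898982 (minus strand, Myl7) and chr3:108364711-108364910 (plus strand, Mybphl).
Myh6: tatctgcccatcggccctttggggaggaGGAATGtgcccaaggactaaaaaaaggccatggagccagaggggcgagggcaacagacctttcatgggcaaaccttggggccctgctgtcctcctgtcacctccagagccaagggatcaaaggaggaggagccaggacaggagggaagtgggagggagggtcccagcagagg
Myh7: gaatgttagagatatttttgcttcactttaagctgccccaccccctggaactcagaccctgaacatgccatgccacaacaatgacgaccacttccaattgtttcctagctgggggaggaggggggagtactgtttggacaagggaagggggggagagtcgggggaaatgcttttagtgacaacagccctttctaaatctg
Myl7: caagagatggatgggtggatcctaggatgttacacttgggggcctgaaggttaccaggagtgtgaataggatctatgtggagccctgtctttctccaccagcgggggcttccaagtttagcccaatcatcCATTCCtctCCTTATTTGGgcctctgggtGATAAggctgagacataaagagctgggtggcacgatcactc
Mybphl: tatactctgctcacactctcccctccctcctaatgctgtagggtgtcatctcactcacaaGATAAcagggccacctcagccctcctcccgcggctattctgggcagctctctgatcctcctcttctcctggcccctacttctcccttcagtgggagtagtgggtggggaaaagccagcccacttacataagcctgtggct
Within 70 bases of its start, Myl7 held CATTCC, a CArG box and GATAA, which began 70, 61 and 41 bases before the start. Among 32851 promoter windows of the same length, 10.1% held CATTCC, 18.1% GATAA, 9.96% TATAAA, 2.29% a MEF2 consensus and 1.18% a CArG box. Myh6 held 1 CATTCC on the opposite strand, Mybphl held 1 GATAA, and Myh7 held none of these letters. A match of letters is a description and not a bound site.

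None of the 9 genes differed between cKO and control ventricles at an adjusted p of at most 0.05 (edgeR quasi-likelihood test, Benjamini-Hochberg over 26820 genes), where 0.858% of all genes tested did, 138 of them higher and 92 lower in cKO. With a fold of at least 1.5 asked for as well, 0 of the 9 and 0.365% of all genes were called. The largest fitted differences were those of Mylk3, Myl2 and Myl7, with log2 fold changes of −0.17, −0.12 and 0.09. At an unadjusted p under 0.05 there was 1 gene of the 9, Mylk3, against 12.8% of all genes. In no gene of the 9 were the groups apart without overlap, in CPM or in TPM, against 6.91% of all genes tested in CPM and 5.95% in TPM. The median log2 fold change of the 9 was −0.02, with 2 genes higher and 7 lower, and that of all genes was −0.00085. The 95% intervals of the 9 fold changes lay between 0.786 and 1.17, so changes beyond these bounds are outside every interval, while smaller ones are within the error of 4 libraries against 4. The median size of the 9 log2 changes, sign left aside, was 0.04, and it was 0.07 over the 2200 genes above 100 CPM. These 9 genes took 3.18% to 3.42% of all TPM in the 8 libraries, with a mean of 3.32% ± 0.040 in cKO and 3.34% ± 0.11 in control (SD, n = 4 each).

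The order of the levels per transcript length, drawn in the plot of TPM by library, was the same in the cKO and in the control means. Myl2 stood at 11837 TPM (mean of 8 libraries), then Myl7 at 6287, Myl4 at 5445, Myl3 at 3493, Myh7 at 3188, Myh6 at 1797, Mybpc3 at 1018, Mylk3 at 188 and Myh7b at 38.6 TPM. Neighbors in this order did not overlap in their ranges over the 8 libraries, except for Myl7 and Myl4 and for Myl3 and Myh7. Within a library Myl7 was above Myl4 in 8 of 8 and Myl3 above Myh7 in 6 of 8. The light chains that are atrial in the adult, Myl7 and Myl4, were thus the second and the third most abundant transcripts of the group in this ventricular tissue.

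**Figure D1:**
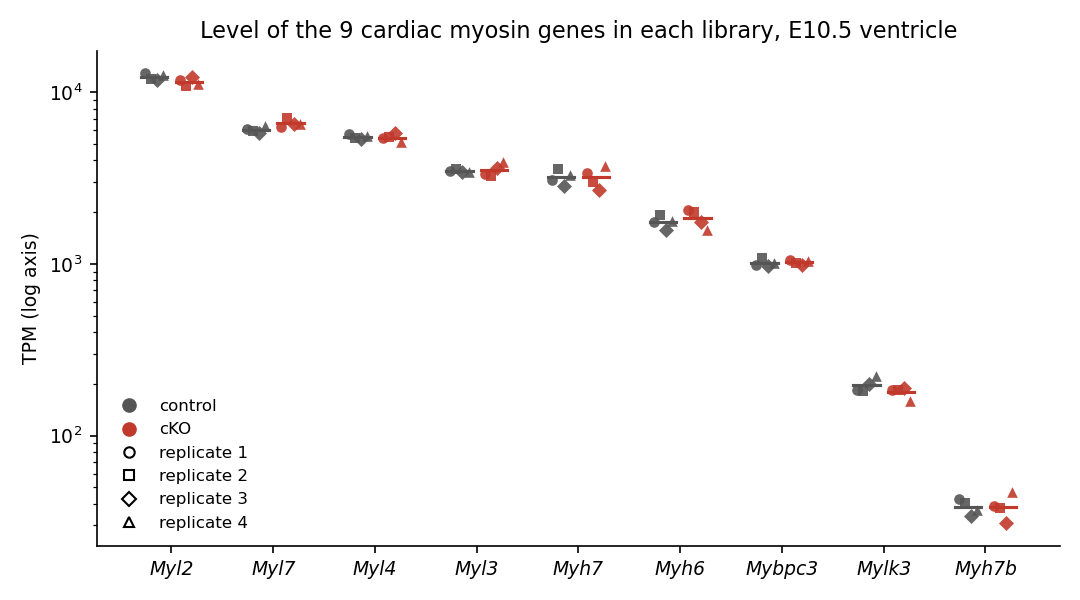
Levels of the 9 genes in each library in TPM on a log axis, genes ordered by their mean, with control libraries in gray and cKO libraries in red, a marker shape for each replicate number and short bars at the group means. The genes span from 38.6 TPM (Myh7b) to 11837 TPM (Myl2), and within each gene the libraries of the 2 groups overlap.

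Myh6, the alpha heavy chain gene (ENSMUSG00000040752.16, chr14:54941921-54966641, minus strand), was at 2061, 2002, 1741 and 1566 TPM in cKO libraries 1 to 4. Control libraries 1 to 4 held 1754, 1915, 1567 and 1774 TPM. The cKO libraries gave both the 2 highest values of the 8 and the lowest, and the groups overlapped. The log2 fold change was 0.04 (SE 0.085, 95% interval −0.14 to 0.22, edgeR adjusted p = 0.912). Without cKO replicate 1 it was −0.0038, so no direction can be given.

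Myh7, the beta heavy chain gene (ENSMUSG00000053093.16, chr14:54970684-54994626, minus strand), was at 3373, 3005, 2670 and 3702 TPM in cKO and at 3077, 3572, 2831 and 3272 TPM in control libraries. Here too the highest and the lowest of the 8 values were cKO libraries, replicates 4 and 3. The group means were 3188 ± 447 TPM in cKO and 3188 ± 313 TPM in control (SD, n = 4 each), with a log2 fold change of −0.02 (SE 0.088, 95% interval −0.21 to 0.17, edgeR adjusted p = 0.959). Its sign turned to 0.02 when library sizes were taken from the cardiomyocyte genes.

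Myh7b, a slow-type heavy chain gene whose transcript contains the microRNA miR-499 (ENSMUSG00000074652.3, chr2:155611212-155634307, plus strand), was the lowest of the 9. It ranged from 30.9 to 46.8 TPM in cKO and from 34.0 to 42.9 TPM in control libraries, again with both extremes in cKO replicates 3 and 4. Its log2 fold change was −0.02 (SE 0.093, 95% interval −0.22 to 0.18, edgeR adjusted p = 0.968), and 0.02 with library sizes from the cardiomyocyte genes. Per transcript length Myh7b made up 0.760% ± 0.084 of heavy chain RNA in cKO and 0.776% ± 0.072 in control libraries.

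The Myh6 to Myh7 ratio of TPM, which describes the balance of the fast and the slow motor, was 0.611, 0.666, 0.652 and 0.423 in cKO libraries 1 to 4. In control libraries 1 to 4 it was 0.570, 0.536, 0.553 and 0.542. Thus 3 cKO libraries stood above all 4 controls, and cKO replicate 4 stood below all of them. The mean log2 ratio differed by 0.07 (SE 0.15, two-sided exact permutation test p = 0.714, 0.816 after adjustment over the 8 ratios computed). The SD of the log2 ratio was 0.31 in cKO, where replicate 4 had the lowest ratio, and 0.039 in control. This difference of spread was not tested. Without cKO replicate 4 the difference of the mean log2 ratios was 0.22 (exact permutation p = 0.0571, the smallest that 3 libraries against 4 allow, adjusted 0.229). Without cKO replicate 1, 2 or 3 in turn this difference was 0.047, 0.0053 and 0.016 (exact permutation p = 0.971 each). Myh6 made up 29.5% to 39.7% of heavy chain TPM in cKO and 34.6% to 36.0% in control libraries. The Myh6 and Myh7 transcripts were identical at 90.3% of 6056 aligned bases (GENCODE M39), and 5.41% of the 150-base windows of Myh6 and 11.2% of its 100-base windows occurred in Myh7 without a mismatch, so a part of the reads could be split between them. The ratio of raw counts gave a log2 difference of 0.06. None of the other 7 genes shared such a window with another of the 9.

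**Figure D2:**
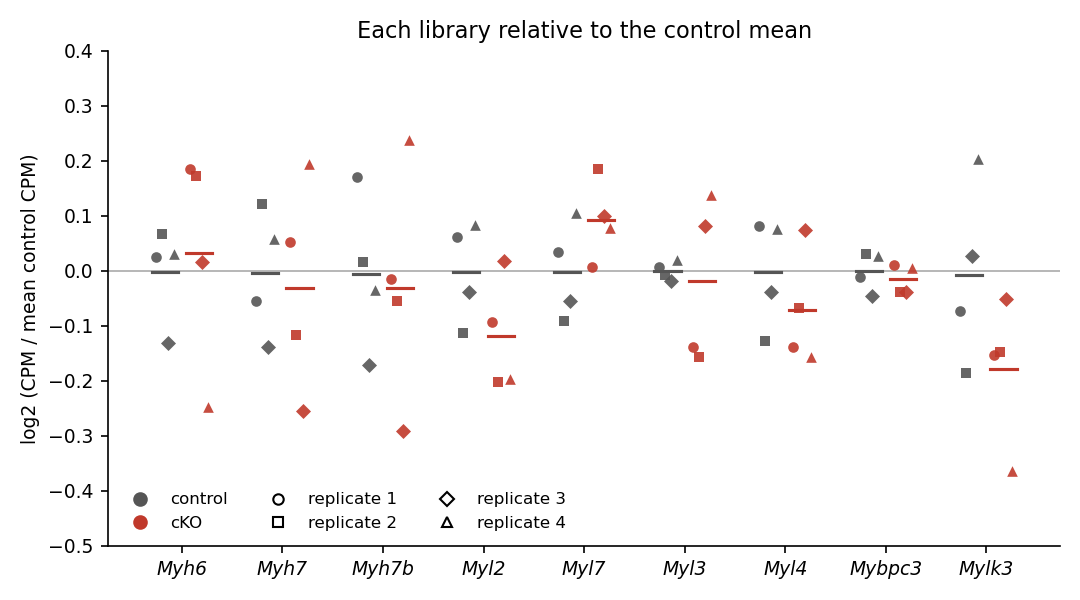
CPM of each gene and library as log2 of its ratio to the mean of the 4 control libraries, with control in gray, cKO in red, a marker shape for each replicate number and short bars at the means of the log2 values. The triangles of cKO replicate 4 are the highest of the 8 points for Myh7, Myh7b and Myl3 and the lowest for Myh6, Myl4 and Mylk3.

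Among the regulatory light chains, Myl2, the ventricular form in the adult (ENSMUSG00000013936.12, chr5:122100951-122113472, plus strand), was at 11796, 10779, 12161 and 11055 TPM in cKO libraries. The controls held 12844, 11837, 11727 and 12501 TPM. The 2 lowest values were cKO libraries and the 2 highest were controls, with overlap of cKO replicates 1 and 3 with the other 2 controls. The log2 fold change was −0.12 (SE 0.068, 95% interval −0.26 to 0.03, edgeR adjusted p = 0.528). It was negative in all 20 alternative fits, from −0.16 to −0.06, and passed the test in none of them.

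Myl7, the atrial form in the adult (ENSMUSG00000020469.8, chr11:5896637-5898782, minus strand, whose promoter is printed above), was at 6235, 7080, 6472 and 6491 TPM in cKO libraries. In controls it was at 6069, 5900, 5750 and 6296 TPM. In TPM all cKO libraries but replicate 1 were above all controls, and replicate 1 was above 3 of them. In CPM the cKO libraries held 2010, 2274, 2143 and 2110 and the controls 2048, 1879, 1925 and 2151. There, of the cKO libraries, replicate 2 alone was above all controls. The log2 fold change of Myl7 was 0.09 (SE 0.062, 95% interval −0.04 to 0.23, edgeR adjusted p = 0.603), positive in all 20 alternative fits, from 0.07 to 0.15, and past the threshold in none.

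Set against each other within a library, the regulatory light chains gave the clearest separation of the groups. The Myl2 to Myl7 ratio of TPM was 1.89, 1.52, 1.88 and 1.70 in cKO libraries and 2.12, 2.01, 2.04 and 1.99 in control libraries, so it was below every control in 4 of 4 cKO libraries. The means were 1.75 ± 0.174 in cKO and 2.04 ± 0.057 in control (SD, n = 4 each), and the cKO ratio was 85.6% of the control ratio (difference of mean log2 ratios −0.22, SE 0.076). The two-sided exact permutation test gave p = 0.0286, the smallest that 4 libraries against 4 allow. After adjustment over the 8 ratios it was 0.229, which does not pass 0.05, and a single ratio that separates the groups cannot pass it in this design. It was the 1 ratio of the 8 whose groups did not overlap, and for single genes in TPM that share was 5.95%. With ratios of raw counts the log2 difference was −0.21, and with each library left out it ranged from −0.26 to −0.16. Myl7 made up 34.6% to 39.6% of regulatory light chain TPM in cKO and 32.1% to 33.5% in control libraries. The sum of both genes was 18017 ± 457 TPM in cKO and 18231 ± 730 TPM in control, with overlap. The transcripts of the pair were 63.1% identical over 590 aligned bases and shared no read-length window.

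**Figure D3:**
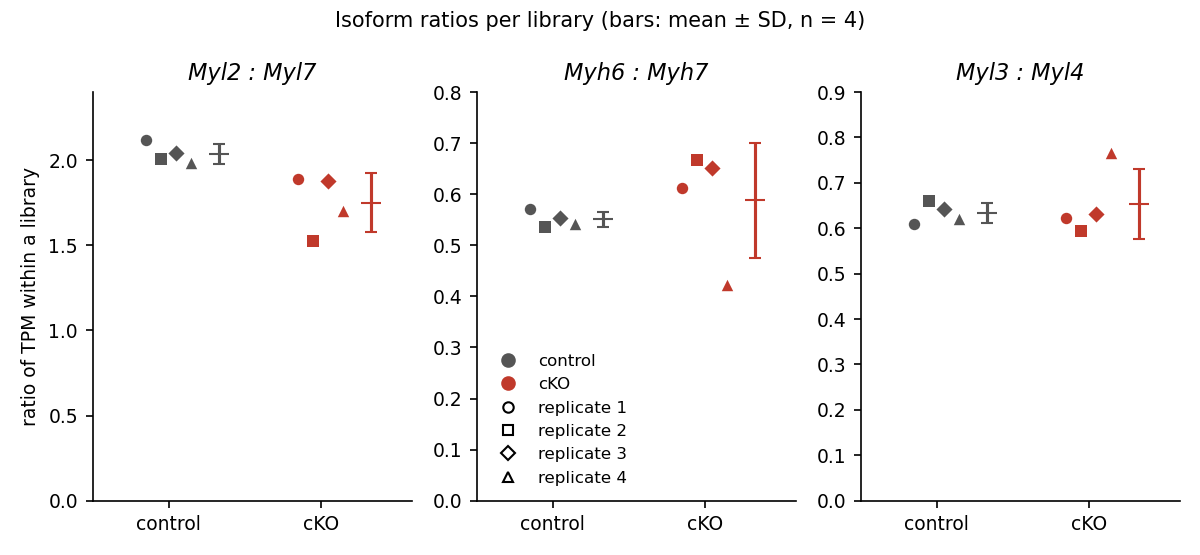
Ratios of TPM within each library for Myl2 to Myl7, Myh6 to Myh7 and Myl3 to Myl4, with points for libraries, a marker shape for each replicate number and bars for the mean and SD of 4 libraries. The 4 cKO points of Myl2 to Myl7 (1.52 to 1.89) lie below the 4 control points (1.99 to 2.12), and in the other 2 ratios the cKO points spread to both sides of the controls.

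Markers of chambers and layers of the heart were read beside this ratio. A list of 8 atrial genes summed to 259 to 299 CPM in cKO and 261 to 286 CPM in control libraries, with 4 higher, 4 lower and 0 past the test. Angpt1 and Dkk3 held most of that sum, at 205 to 234 CPM and 209 to 235 CPM. In a division made after the values were seen, the other 6 summed to 54.6 to 64.5 CPM in cKO and 50.1 to 53.4 CPM in control, without overlap. The atrial calcium pump regulator gene Sln was at 0 in 5 of 8 libraries, with 8 counts in all. Compact layer genes (Hey2, Mycn, Tbx20, Irx4) summed to 538 to 608 CPM in cKO and 643 to 715 CPM in control without overlap, all 4 were lower and 1, the transcriptional repressor gene Hey2, passed the test (log2 fold change −0.46, edgeR adjusted p = 0.00171). Over all genes tested, 0.343% were called lower. A trabecular list of 7 genes summed to 1297 to 1576 CPM in cKO and 1433 to 1604 CPM in control, with 0 past the test. The part of these layers in the Myl2 to Myl7 ratio was not tested.

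The essential light chain gene Myl3, ventricular and slow in the adult (ENSMUSG00000059741.13, chr9:110763646-110769798, plus strand), was at 3343, 3223, 3628 and 3890 TPM in cKO libraries. Controls held 3481, 3539, 3411 and 3432 TPM. The control values lay close together, and cKO libraries lay on both sides of them. In CPM the SD was 188 in cKO and 21.4 in control around means of 1798 and 1815. The log2 fold change was −0.01 (SE 0.069, 95% interval −0.16 to 0.13, edgeR adjusted p = 0.969), and its sign turned to 0.02 in the fits on log2 TPM and with library sizes from the cardiomyocyte genes.

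Myl4, the atrial and embryonic essential light chain gene (ENSMUSG00000061086.12, chr11:104550663-104587215, plus strand), ranged from 5079 to 5755 TPM in cKO and from 5313 to 5705 TPM in control libraries, with the control range inside that of the cKO. Its log2 fold change was −0.07 (SE 0.068, 95% interval −0.22 to 0.08, edgeR adjusted p = 0.768). The Myl3 to Myl4 ratio of TPM was 0.622, 0.593, 0.630 and 0.766 in cKO and 0.610, 0.660, 0.642 and 0.620 in control libraries. Of the cKO libraries, replicate 4 was above and replicate 2 below all controls. The mean log2 ratio differed by 0.04 (SE 0.085, exact permutation p = 0.83, the same after adjustment), and without cKO replicate 4 the difference was −0.04.

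Across the filament, the proportions of the chain classes differed by less than the spread between libraries. Light chains summed to 5.36 ± 0.650 TPM per TPM of heavy chains in cKO and 5.49 ± 0.484 in control (log2 difference −0.04, SE 0.11, exact permutation p = 0.714, adjusted 0.816). Regulatory to essential light chains stood at 2.02 ± 0.056 in cKO and 2.04 ± 0.049 in control (log2 difference −0.01, SE 0.026, exact permutation p = 0.571, adjusted 0.816). This last ratio was the steadiest of all 8, from 1.96 to 2.10 over the 8 libraries. The Myh7b to Myh6 plus Myh7 ratio differed by −0.03 on the log2 scale (exact permutation p = 0.629, adjusted 0.816).

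Mybpc3, the binding protein gene (ENSMUSG00000002100.15, chr2:91118144-91136516, plus strand), varied least among the 9. It ranged from 986 to 1053 TPM in cKO and from 975 to 1081 TPM in control libraries, so the cKO values lay inside the control range. The log2 fold change was −0.02 (SE 0.053, 95% interval −0.13 to 0.10, edgeR adjusted p = 0.950) and turned to 0.01 in the fits on log2 TPM. Relative to heavy chains in TPM it was 0.203 ± 0.013 in cKO and 0.204 ± 0.011 in control (log2 difference −0.01, exact permutation p = 0.714, adjusted 0.816).

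Mylk3, the cardiac light chain kinase gene (ENSMUSG00000031698.14, chr8:85324303-85380978, minus strand), was at 184, 185, 190 and 159 TPM in cKO libraries and at 184, 181, 199 and 222 TPM in control libraries. The lowest value was cKO replicate 4 and the highest control replicate 4, while the other 6 libraries lay from 181 to 199 TPM and mixed. The edgeR log2 fold change was −0.17 (SE 0.081, 95% interval −0.35 to −0.0019, edgeR adjusted p = 0.384). It was negative in all 20 alternative fits, from −0.22 to −0.10, and the lowest adjusted p among them was 0.203. Set against the regulatory light chains, its substrates, the ratio of TPM was 0.00995 ± 0.00058 in cKO and 0.0108 ± 0.00097 in control (log2 difference −0.12, SE 0.078, exact permutation p = 0.229, adjusted 0.816).

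cKO replicate 4 held 6 of the 18 highest and lowest places among the 9 genes in CPM. The same library was the lowest of 8 for 7 of the 15 cardiomyocyte genes, Smpx among them. In the trabecular list of 7, which also holds Smpx, it was the highest for Nppa, Nppb and Bmp10 (natriuretic peptide genes and a growth factor gene). It was the lowest for Cited1 and Smpx. Nppa was at 540 CPM there and at 371 to 440 CPM in the other cKO libraries. Its share of hemoglobin counts (0.475%) and its summed endothelial and endocardial genes (2632 CPM) were the highest of the 8, and its summed cardiomyocyte genes (27499 CPM) the lowest. The part of these values in the Myh6, Myh7, Myl3 and Mylk3 levels was not tested.

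The genes whose library-to-library pattern was most like that of a heavy or regulatory light chain were read from Pearson r of log2 CPM, each library relative to its group mean, over 8 libraries and 9849 genes of at least 10 CPM. They were Nrg1 (r = 0.980), Acsl1 (0.970) and Myo16 (0.958) for Myh6. For Myh7 they were Ppard (r = 0.982), Mthfd1l (0.979) and the cardiomyocyte gene Ldb3 (0.974). For Myl2 the first was Wdr45b (r = 0.993), followed by Atp5pb-ps (0.986) and Alg8 (0.978). For Myl7 they were Atg4d (r = 0.986), Snrnp70 (0.971) and Nop16 (0.963). With 8 points and so many genes ranked, high values arise in any such ranking, the libraries share their depth and scaling, and the r are a description.

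Of 41 other genes of the pathway, 40 were in the count table and 38 were tested. Mybphl was the 1 that rose, none fell, and over all genes tested 0.515% were called higher and 0.343% lower. The median log2 fold change of the 38 was 0.0068.

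Mybphl encodes a myosin binding protein related to Mybpc3 that is known from atrial muscle and the conduction system. The gene (ENSMUSG00000068745.6, chr3:108364911-108380057, plus strand) was at 85.2, 79.4, 84.2 and 81.9 TPM in cKO libraries and at 54.7, 60.1, 51.4 and 56.4 TPM in control libraries. All cKO values were above all control values, with means of 82.7 ± 2.58 and 55.6 ± 3.6 TPM (SD, n = 4 each). Its log2 fold change was 0.53 (SE 0.059, edgeR adjusted p = 0.000618). It passed the test in all 20 alternative fits, with log2 fold changes from 0.50 to 0.59 and adjusted p from 3.26e-14 to 0.0492. In the main fit its fold was 1.45, so it was not called where a fold of at least 1.5 was asked for as well. Among the members, Mybpc3 stood at 1018 TPM, more than 10 times the level of Mybphl per transcript length, and did not pass the test. The atrial list given above had 0 of 8 genes past the test, with 4 higher, 4 lower and 2 at a mean under 1 CPM. Its sum overlapped between the groups, while that of the 6 genes without Angpt1 and Dkk3, divided off afterwards, was higher in cKO. The part of atrial tissue in the Mybphl level was not tested.

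**Figure D4:**
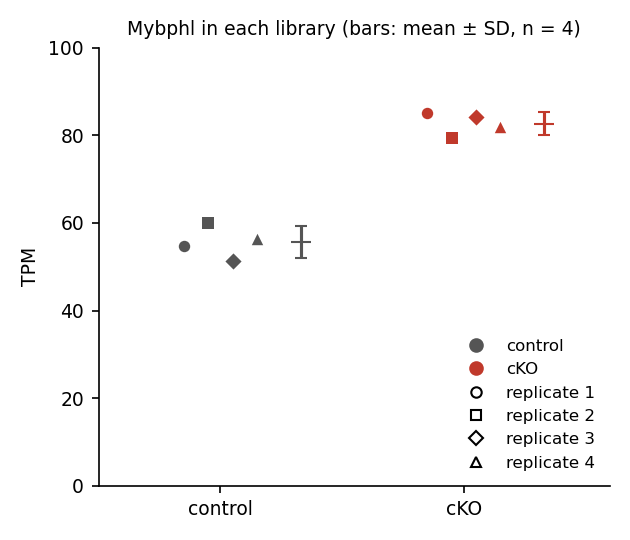
Mybphl in TPM in each control (gray) and cKO (red) library, with a marker shape for each replicate number and bars for the mean and SD of 4 libraries. The cKO libraries lie from 79.4 to 85.2 TPM and the controls from 51.4 to 60.1 TPM.

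The other myosin binding proteins were scarce in this tissue. Mybpc1, the slow skeletal form, was at 1.12, 2.21, 1.44 and 3.33 TPM in cKO and at 0.482, 0.477, 1.21 and 0.235 TPM in control libraries, and the groups overlapped through control replicate 3. Its log2 fold change was 1.65 (SE 0.39, edgeR adjusted p = 0.0626). It passed the test in 5 of the 20 alternative fits, those without cKO replicate 3 or control replicate 3, with the replicate block, with no filter and with 1 surrogate variable. Mybpc2 and Mybph, the fast skeletal form and protein H, were below 1 TPM in every library. A list of 8 skeletal muscle genes summed to 7.04 to 16.1 CPM in cKO and 6.04 to 15.0 CPM in control, and Myod1, Myf5, Myf6, Pax7 and Pax3 were too low to be tested.

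The other light chains were led by forms of non-muscle and smooth muscle cells. Myl9, a regulatory light chain of smooth muscle and non-muscle myosin, was at 1846 ± 64.5 TPM in cKO and 1812 ± 47.6 TPM in control, with a log2 fold change of 0.0025 (edgeR adjusted p = 0.996). Myl6, the essential light chain of the same myosins, was at 1745 ± 180 and 1731 ± 137 TPM (log2 fold change 0.01, edgeR adjusted p = 0.972). Myl1, the fast skeletal essential light chain gene that the embryonic heart also transcribes, was at 668 ± 79.2 and 640 ± 53.4 TPM (log2 fold change 0.01, edgeR adjusted p = 0.978). Of the 7 light chains tested in this list, none was called. Myl12a, a regulatory light chain of non-muscle myosin, came nearest, at 389 ± 22.3 TPM in cKO and 427 ± 13.1 TPM in control (log2 fold change −0.21, SE 0.053, edgeR adjusted p = 0.0820), and DESeq2 called it lower. Its near-identical copy Myl12b was at 59.1 TPM but at 2.04 to 2.26 CPM in cKO libraries, and the division of reads between the pair is uncertain.

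The heavy chains of other muscles were nearly absent. The 7 that were tested of 8 summed to at most 2.74 CPM in any library, and most of that was the smooth muscle heavy chain Myh11, at 1.08 to 1.91 CPM. The embryonic skeletal heavy chain Myh3 was at 0.353 CPM or less, with all cKO values below all control values, and had a log2 fold change of −1.53 (SE 0.56, edgeR adjusted p = 0.236). Myh1, the adult fast skeletal form, was at 0.591 CPM or less (log2 fold change −1.08, edgeR adjusted p = 0.387).

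Among kinases and phosphatases of the light chains, 0 of 10 genes were called. Ppp1cb, the catalytic subunit of myosin phosphatase, was at 94.7 ± 5.42 TPM in cKO and 105 ± 9.95 TPM in control (log2 fold change −0.19, SE 0.071, edgeR adjusted p = 0.244). Calm2 and Calm3, whose product calmodulin activates light chain kinases, had log2 fold changes of 0.01 and −0.10. The smooth muscle kinase gene Mylk was at 1.92 and 2.03 TPM, and Mylk2 and Mylk4, the skeletal kinase and a further member of the family, were below 1 TPM.

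Of the 6 genes for myosin folding and assembly, 5 were lower and none was called. Unc45b, the muscle myosin chaperone gene, was at 232 ± 23.0 TPM in cKO and 249 ± 9.88 TPM in control (log2 fold change −0.13, SE 0.069, edgeR adjusted p = 0.468). Smyd1, whose product works with it in thick filament assembly, was at 384 ± 42 and 389 ± 13.6 TPM (log2 fold change −0.05, edgeR adjusted p = 0.861). The chaperone genes Hsp90aa1 and Hsp90ab1 had log2 fold changes of −0.10 and −0.06. cKO replicate 4 was the lowest of 8 libraries for Unc45b, Smyd1 and Hsp90aa1 and the highest for Unc45a.

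**Figure D5:**
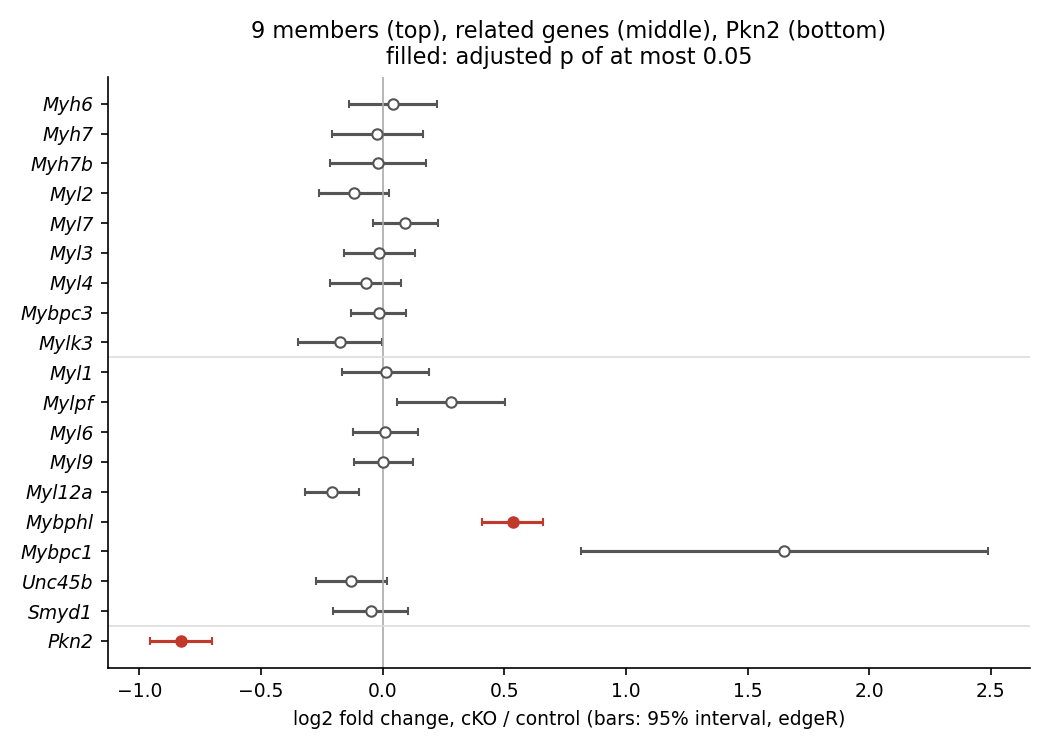
Log2 fold changes of cKO against control with 95% intervals (edgeR) for the 9 genes (top), related genes (middle) and Pkn2 (bottom), with filled symbols where the adjusted p was at most 0.05. The 9 lie between −0.17 (Mylk3) and 0.09 (Myl7), Mybphl is at 0.53 and Pkn2 at −0.83.

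RNAs from the myosin loci were counted at low levels. Mhrt, a long non-coding RNA that overlaps Myh7 on the opposite strand, was at 23.0 ± 1.89 TPM in cKO and 23.6 ± 5.36 TPM in control (log2 fold change of the counts 0.18, SE 0.12, edgeR adjusted p = 0.594). The strand setting of the counting was not given in the sources used here, so reads of Mhrt and of Myh7 may not be told apart. At the microRNA loci printed above, Mir208a and Mir208b had log2 fold changes of 0.46 and 0.56 (edgeR adjusted p = 0.708 and 0.438) at no more than 1.04 CPM, and Mir499 was at 0 in 5 of 8 libraries.

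Of the lists of other cell types in the tissue, the endothelial and endocardial list had the most genes past the test. The 18 endothelial and endocardial genes summed to 2069 to 2632 CPM in cKO and 1632 to 1932 CPM in control without overlap, all 18 were higher and 7 passed the test. Over all genes tested, 0.515% were called higher and 0.343% lower. Cushion mesenchyme genes summed to 2204 to 2656 CPM in cKO and 1821 to 2141 CPM in control. Most of that sum was Vcan, which encodes the matrix proteoglycan versican and was the 1 gene of 10 that passed. Without it the other 9 summed to 431 to 564 CPM and 406 to 505 CPM, with overlap, and 3 of the 10 were lower. The 10 macrophage genes summed to 12.3 to 40.1 CPM in cKO and 9.46 to 15.2 CPM in control, and 2 of them were called. Epicardial genes (345 to 522 and 438 to 464 CPM), smooth muscle genes (2803 to 3310 and 3089 to 3830 CPM), erythroid genes (1382 to 4813 and 1502 to 4659 CPM) and hepatic genes (14.4 to 21.3 and 16 to 44.0 CPM) overlapped between cKO and control, with 0 called in each list. Most of the smooth muscle sum was Acta2, at 2275 to 2732 CPM in cKO and 2553 to 3265 CPM in control. Of the 5 smooth muscle genes 3 were lower and 2 higher in cKO, and all 9 erythroid genes were higher. Of the 15 cardiomyocyte genes 0 were called, with 11 lower, 4 higher and a median log2 fold change of −0.05. In CPM, Nkx2-5 and Smpx were lower and Tcap higher in cKO without overlap (log2 fold changes −0.32, −0.33 and 0.24). Over all genes tested, 6.91% were without overlap in CPM. With library sizes set to the sum of the 15 cardiomyocyte genes, the log2 fold changes were −0.08 for Myl2, 0.13 for Myl7 and −0.14 for Mylk3, and again 0 of the 9 passed. The part of the other cell types in the levels of the 9 genes was not tested.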

How the data were processed

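RNA from ventricular tissue was measured in 8 libraries, 4 cKO and 4 control, and each label names a separate biological replicate. One table that the authors deposited holds raw counts, not normalized, by gene symbol. The second holds TPM that the authors computed, with Ensembl identifiers and positions and 1 column per library. The labels do not state whether a library is 1 embryo or a pool of embryos. The submitters' processing notes name Trim Galore 0.6.7, HISAT2 2.2.1, StringTie 2.2.1, featureCounts and DESeq2. The labels give 150 bp paired-end reads and the series text 100 bp. Positions fit GRCm38 (86.0% of 38882 gene starts within 1000 bases of RefSeq, against 3.84% of 49515 for GRCm39, the build the methods name) and are given as GRCm38.

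Counts were tested with edgeR 4.0.16 in R 4.3.3 (quasi-likelihood F test, TMM, condition alone, at least 8 counts in total per gene, Benjamini-Hochberg). Called means an adjusted p of at most 0.05. With both this and a fold of at least 1.5, 98 genes (0.365%) were called. Log2 ratios of TPM within a library, 8 in all, were compared by two-sided exact permutation of 4 against 4 (70 groupings). The scripts were tested on simulated data. No 2 libraries were copies of each other: chi-square per degree of freedom was 12.0 to 39.1 over the 12 pairs of a group. Counting error is small at these totals, and the spread between libraries was used as the error.

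The members and lists were chosen with earlier results of these data known. Named were the 9 genes, Pkn2, pathway genes that were called, up to 4 of the highest TPM in each pathway list, and the 3 genes most like Myh6, Myh7, Myl2 and Myl7. Myl12b, Mylpf, Mylk, Mylk2 and Mylk4, Nppa, Nppb, Bmp10, Cited1, Smpx, Unc45a, Hey2, Vcan, Acta2, Angpt1, Dkk3 and Sln were added after their values were seen. Alternatives were DESeq2 1.42.0, limma-voom, limma 3.58.1 on log2 TPM (pseudocounts 1 and 0.1), DESeq2 size factors, filterByExpr, no filter, the replicate block, library sizes from 15 cardiomyocyte genes, hemoglobin genes left out, 1 surrogate variable (sva 3.50.0) and each library left out. Library sizes from the geometric mean of the cardiomyocyte genes were chosen after seeing the data. Of the 41 pathway symbols, Myl5 was not among the symbols of the count table. Myl2 has no promoter printed. The values of 2 further genes are not reported here.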

Additional observations from a re-analysis of the deposited data

Results flagged for a closer look

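In each group of 4 libraries, the highest or lowest library was compared with the gap to its neighbor. Of 102 groups screened, 7 had a library that stood apart from the other 3, where chance alone marks about 1 in 20 groups.

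Among values that involve the 9 genes, the Mylk3 to regulatory light chain ratio of TPM was 0.00908 in cKO replicate 4 and 0.0102 to 0.0103 in the other cKO libraries. The same library was apart for Smyd1, the thick filament assembly gene, at 598 CPM against 743 to 759 CPM, and for the calmodulin gene Calm2, at 319 CPM against 354 to 358 CPM.

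In controls, replicate 3 was apart for Myh1 (0.212 CPM against 0.539 to 0.591 CPM) and for Unc45b (387 CPM against 400 to 403 CPM). Control replicate 4 was apart for Hsp90ab1, at 3967 CPM against 3496 to 3526 CPM. At the Mir499 locus, control replicate 2 held 0.0622 CPM and the other 3 controls held 0.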

How the results depend on the processing

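None of the 9 genes was called in any of the 20 alternatives (180 values), and the lowest adjusted p was 0.194 (Myl2 without cKO replicate 3). Myl2, Myl4 and Mylk3 were lower and Myl7 higher in cKO in all 20. The others lie near 0 and changed sign. With library sizes from the cardiomyocyte genes (sum, then geometric mean) the log2 fold changes were 0.016 and 0.034 for Myh7, 0.019 and 0.038 for Myh7b, 0.022 and 0.040 for Myl3, and 0.017 and 0.037 for Mybpc3. On log2 TPM with pseudocounts of 1 and 0.1 they were 0.019 and 0.019 for Myl3 and 0.013 and 0.013 for Mybpc3. The cause was not tested. With each library left out, ranges were −0.0038 to 0.13 for Myh6, −0.093 to 0.051 for Myh7, −0.11 to 0.064 for Myh7b, −0.060 to 0.040 for Myl3 and −0.031 to 0.0052 for Mybpc3. For the log2 ratios they were −0.11 to 0.030 for Myh7b to Myh6 plus Myh7, −0.041 to 0.082 for Myl3 to Myl4, −0.026 to 0.00061 for regulatory to essential light chains, −0.12 to 0.0042 for light to heavy chains and −0.057 to 0.023 for Mybpc3 to heavy chains. For Myh6 to Myh7 the range was 0.0053 to 0.22. The scalings moved the median log2 fold change of all genes from −0.00085 to 0.03 and 0.05. Over all genes 230 were called, with 867 in DESeq2, 878 with no filter, 388 with 1 surrogate variable, 2 and 5 on log2 TPM (pseudocounts 1 and 0.1), and 67 (without control replicate 1) to 744 (without cKO replicate 3) with a library left out. Of pathway genes 1 was called, and 2 were with DESeq2 (Mybphl and Myl12a), and with no filter, 1 surrogate variable or the replicate block (Mybphl and Mybpc1), and 1 to 2 with a library left out.

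The replicate block gave 380 genes called over all genes and 2 pathway genes, and changed no direction among the 9 genes and the ratios. Deviations from the group means correlated by −0.30, −0.05, 0.04 and −0.20 between libraries of the same number over 9858 genes, so the numbers were not taken as pairs. For the Myl2 to Myl7 ratio, an exact permutation over same-number differences cannot give a p below 0.125.

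Depth does not limit the 9 genes, each above 100 CPM in every library, but genes under 1 CPM, such as Myh3 and the microRNA loci, rest on few reads.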
